A study of Homo sapiens with 9 samples.

Results

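FAM46B (now TENT5B), FOXK2, GREB1 and PABPC3 are 4 genes that an earlier look at these arrays ranked among the smallest p-values of the transcripts lower in Hep3B liver tumours after MRX34, once heat shock chaperones and THBS1 were set apart. They were taken by symbol from the deposited table, where they have 10 probes of 47322 in all: 1 for FAM46B, 3 for FOXK2, 4 for GREB1 and 2 for PABPC3. Of these, 4 probes, 1 per gene, passed the filter on detection, against 19802 named probes passing in all. The 4 genes were chosen by their p-values and differences in the contrasts of MRX34 with the controls on these same arrays, so their values in those contrasts are a description, with no test.

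Hep3B is a human hepatocellular carcinoma cell line, here implanted by surgery in the livers of Nod/Scid mice, a strain without working T and B cells, and grown for about 5 weeks. Whole tumours were taken 24 hours after 1 intravenous injection, and their total RNA was hybridised to Illumina expression arrays. There were 3 arrays each for MRX34 (miR-34a, as a synthetic mimic packed in liposomes), empty liposomes (the carrier without the mimic) and dilution buffer. Both controls together are called the 6 controls. The labels do not say whether each array stands for its own animal, so standard errors measure the spread between these samples. They come from a fit over all probes, which draws each probe's variance toward a value common to all probes. Fewer tumour cells cannot be told apart from less RNA per cell.

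The mimicked microRNA is shown because its seed is the part that selects targets. The mature strand of miR-34a, from RefSeq (GRCh38.p14, chr1:9151735-9151756, minus strand), has 22 bases, and capitals mark the seed, bases 2 to 8.
hsa-miR-34a-5p: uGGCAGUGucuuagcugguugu
A microRNA lowers the level or translation of messenger RNAs that pair with its seed, mostly in their 3′ untranslated regions. Those regions of the 4 genes were not analysed here, and nothing below says whether any of them is a direct target.

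The 4 genes belong to 3 kinds of control over gene output. FAM46B is a non-canonical poly(A) polymerase that lengthens the tails of messenger RNAs, and PABPC3 is an intronless relative of PABPC1, the main cytoplasmic protein that binds those tails, best known from testis. FOXK2 is a forkhead transcription factor that works with the SIN3 corepressor and the deubiquitinase BAP1, and is known for control of autophagy and glycolysis genes. GREB1 is a cofactor of the oestrogen receptor induced by oestrogen in breast cells, and in hepatoblastoma cells it is known as a target of Wnt and beta-catenin.

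Facts of the whole set of arrays bear on every value below. Mean background-subtracted intensity per array ran from 323 to 512 in MRX34, from 163 to 491 in empty liposomes and from 249 to 616 with dilution buffer, and 31.2% to 46.6% of named probes were detected. Here a probe is detected on an array when its detection p, the share of 770 negative controls at least as bright, is under 0.05. All 8 Hep3B tumour markers were detected on at least 3 arrays and 7 of them on all 9, with AFP at a mean of 15.3 log2 units in MRX34, 15.2 in empty liposomes and 15.4 in dilution buffer. Of 5 leukocyte markers, CD68 and LYZ were detected on all 9 arrays, CD79A on 6, and PTPRC and CD3E on 0. Of 3 endothelial markers, PECAM1 was detected on 5 arrays (mean 5.91 log2 units in MRX34, 5.24 in empty liposomes and 5.13 in dilution buffer), and VWF and CDH5 on 0. Of 4 fibroblast and stellate cell markers, PDGFRB was detected on 9 arrays, COL1A1 on 3, COL1A2 on 1 and ACTA2 on 0. The tumours grew in mice, and how far these probes, or those of GNMT and OTC, read mouse RNA was not tested. Detection here therefore shows neither presence nor absence of host cells. The part of such cells in the values below was not tested. The mean level of GNMT and OTC, enzymes of adult hepatocytes, was 9.59 ± 1.68 log2 units in MRX34, 12.1 ± 1.39 in empty liposomes and 10.9 ± 3.13 in dilution buffer (SD, n = 3 each). Empty liposomes 1 (98.1) and MRX34 2 (-54.6) lay farthest out along the first principal component.

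FAM46B, the poly(A) polymerase, lay lower in MRX34 than in either control on its only probe (ILMN_1808011). Its level was 5.62, 5.64 and 6.02 log2 units on MRX34 1, 2 and 3, against 7.90, 7.24 and 7.31 on empty liposomes 1, 2 and 3, and 7.30, 7.69 and 8.02 on dilution buffer 1, 2 and 3. All 3 MRX34 arrays lay below all 6 controls, and the 2 control groups overlapped. The probe was detected on all 9 arrays, with the highest detection p, 0.0364, on MRX34 1. In the deposited intensities, which still contain background, the means were 125.0 ± 9.45 in MRX34, 254.2 ± 48.1 in empty liposomes and 278.7 ± 50.8 in dilution buffer (SD, n = 3 each).

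The FAM46B difference was -1.82 log2 units between MRX34 and both controls (SE 0.231), which is 3.52-fold lower. It was -1.73 (SE 0.266) against empty liposomes and -1.91 (SE 0.266) against dilution buffer, contrasts that share the 3 MRX34 arrays. Empty liposomes minus dilution buffer was -0.18 (SE 0.266), within the spread of the arrays. The level of GNMT and OTC was lowest on average in MRX34, and with it as a covariate FAM46B differed from both controls by -1.67 (SE 0.242). Among the alternatives tried, the value ran from -1.08 without background correction to -2.17 with an offset of 1.

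FOXK2, the forkhead factor, lay lower in MRX34 on 1 of its 3 probes (ILMN_2310685), near the floor of detection. The level was 5.11, 5.18 and 5.49 log2 units on MRX34 1, 2 and 3. It was 6.09, 6.44 and 6.35 on empty liposomes 1, 2 and 3 and 6.45, 6.20 and 6.39 on dilution buffer 1, 2 and 3. No MRX34 array overlapped the controls, and both control groups covered nearly the same range. The detection p was 0.122, 0.061 and 0.0143 on MRX34 1, 2 and 3, so that the probe was detected on 1 of 3 MRX34 arrays, against 3 of 3 with empty liposomes and 3 of 3 with dilution buffer.

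The probe passed the filter through the 6 controls, where it is high, and its level in MRX34 lies at the limit of detection, so the size of the difference is uncertain. The FOXK2 difference was -1.06 log2 units against both controls (SE 0.176), with -1.03 (SE 0.203) against empty liposomes and -1.09 (SE 0.203) against dilution buffer. Empty liposomes minus dilution buffer was -0.05 (SE 0.203). With the level of GNMT and OTC as a covariate the difference from both controls was -1.13 (SE 0.195). Without background correction it was -0.515 and with an offset of 1 it was -1.48, the widest relative span of the 4 genes. The other FOXK2 probes were detected on 0 of 9 arrays. ILMN_1784341 had detection p-values from 0.0519 to 0.639 and a mean of 5.17 in MRX34, 5.27 in empty liposomes and 4.77 in dilution buffer, with its highest level, 5.97, on empty liposomes 1. ILMN_2241317 had detection p-values from 0.417 to 0.981 and a mean of 4.66 in MRX34 against 4.67 in the 6 controls. Neither showed the lower MRX34 level of the detected probe.

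GREB1, the oestrogen receptor cofactor, lay lowest in MRX34, with empty liposomes between MRX34 and dilution buffer. Its detected probe (ILMN_1721170) had levels of 5.97, 6.63 and 6.81 log2 units on MRX34 1, 2 and 3. The levels were 7.12, 7.55 and 7.90 on empty liposomes 1, 2 and 3 and 8.41, 8.46 and 7.92 on dilution buffer 1, 2 and 3. No 2 groups overlapped, but the highest array of empty liposomes (7.90) and the lowest of dilution buffer (7.92) were nearly equal. The probe was detected on all 9 arrays, with a highest detection p of 0.0156 on MRX34 1.

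The GREB1 difference was -1.80 log2 units against dilution buffer (SE 0.298), 3.47-fold lower, and -1.05 (SE 0.298) against empty liposomes, 2.08-fold lower. Against both controls it was -1.43 (SE 0.258). Empty liposomes minus dilution buffer was -0.74 (SE 0.298), with the dilution buffer arrays shared by the contrast that chose the gene. With the level of GNMT and OTC as a covariate, the difference from both controls was -1.69 (SE 0.221). Without empty liposomes 1 and MRX34 2 it was -1.61 (SE 0.281).

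The other 3 GREB1 probes did not pass the detection filter. ILMN_1791188 was detected on 2 of 9 arrays, MRX34 3 and dilution buffer 1, with a mean level of 5.17 in MRX34, against 4.95 over the 6 controls. ILMN_1736956 (4.97 in MRX34, against 4.99 over the 6 controls) and ILMN_1715984 (4.76 in MRX34, against 4.72 over the 6 controls) were detected on 0 arrays. Which GREB1 transcripts each probe measures was not analysed here.

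PABPC3, the poly(A)-binding protein, followed the same order of groups as GREB1. Its detected probe (ILMN_1718128) had levels of 6.91, 7.32 and 7.53 log2 units on MRX34 1, 2 and 3. The levels were 7.89, 8.16 and 8.05 on empty liposomes 1, 2 and 3 and 8.46, 8.60 and 9.18 on dilution buffer 1, 2 and 3. No 2 groups overlapped, and the probe was detected on all 9 arrays with a highest detection p of 0.0026. The other probe (ILMN_2223293) was detected on 0 arrays, with detection p-values from 0.678 to 0.968 and a mean of 4.63 in MRX34 against 4.59 in the 6 controls.

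The PABPC3 difference was -1.49 log2 units against dilution buffer (SE 0.255), 2.82-fold lower, and -0.78 (SE 0.255) against empty liposomes, 1.71-fold lower. Against both controls it was -1.14 (SE 0.221), and with the level of GNMT and OTC as a covariate -1.06 (SE 0.250). Empty liposomes minus dilution buffer was -0.72 (SE 0.255). PABPC3 is closely related to PABPC1, and how far its probe also reads PABPC1 was not tested. The 2 PABPC1 probes differed from each other: ILMN_1761155 averaged 12.35 ± 0.277 log2 units in MRX34, 12.41 ± 0.195 in empty liposomes and 12.45 ± 0.316 in dilution buffer. ILMN_2136133 averaged 9.66 ± 0.418 in MRX34, 9.91 ± 0.794 in empty liposomes and 10.82 ± 0.816 in dilution buffer (SD, n = 3 each).

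**Figure D1:**
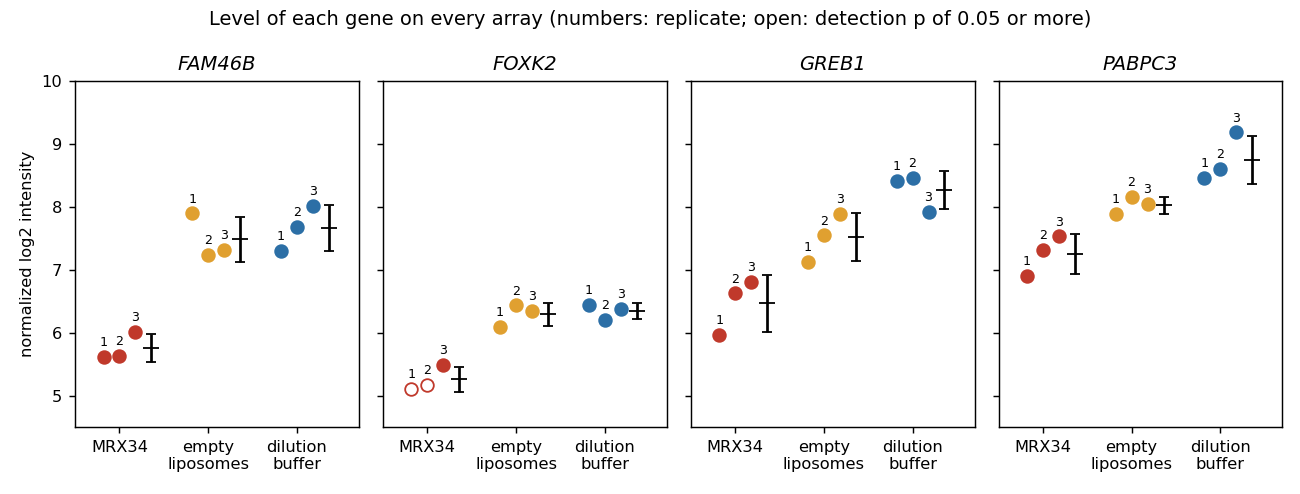
Normalized log2 intensity of the detected probe of each gene (vertical axis) on each array, by group, with the replicate number over each point and the mean and SD (n = 3) as a black bar. Open points have a detection p of 0.05 or more, and all 3 MRX34 arrays lie below all 6 controls in each panel.

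**Figure D2:**
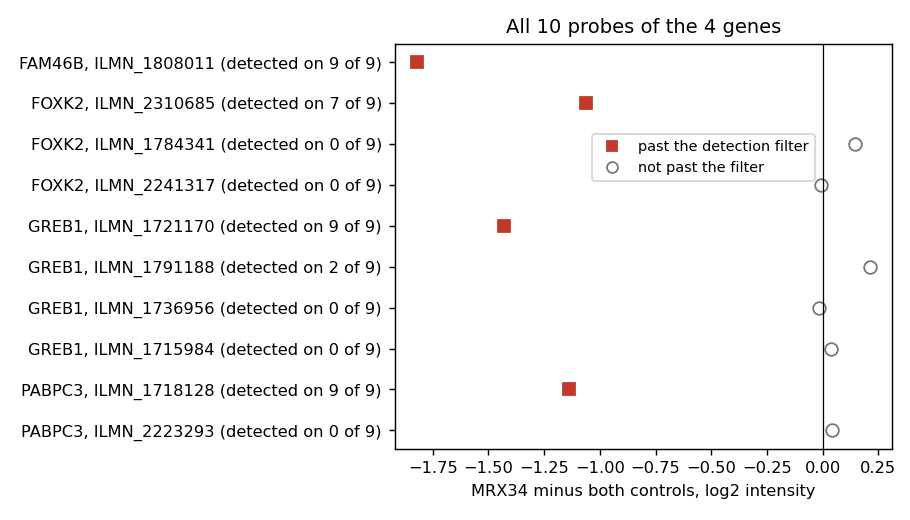
Difference between the MRX34 mean and the mean of both controls (log2 intensity, horizontal axis) for each of the 10 probes. The 4 filled squares, probes past the detection filter, lie between -1.82 and -1.06, and the 6 open circles, probes that did not pass it, lie between -0.01 and 0.21.

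The 10 probes split by detection, as the plot of all probes shows. The 4 that passed the filter differed by -1.82, -1.06, -1.43 and -1.14 log2 units, and the 6 that did not pass it differed by -0.01 to 0.21. These 6 were dim, detected on at most 2 arrays each, which limits what they can show of a difference. The genes were chosen for lower values in MRX34, which only the passing probes show, so nothing is read from the split. The values rest on 1 probe per gene, and no gene had a second detected probe to set beside it.

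Within MRX34, the same arrays were low and high for all 4 genes. MRX34 1 gave the lowest and MRX34 3 the highest level of FAM46B, FOXK2, GREB1 and PABPC3. MRX34 1 and 2 were nearly equal for FAM46B (5.62 and 5.64) and FOXK2 (5.11 and 5.18). How many of all probes have this order was not counted, so it is not shown to be particular to these genes. The level of GNMT and OTC was 11 on MRX34 1, 10.1 on MRX34 2 and 7.73 on MRX34 3, and mean intensity on these arrays was 323, 512 and 496. Their part in the order was not tested. With mean intensity as a covariate the differences from both controls were -1.72 for FAM46B, -1.10 for FOXK2, -1.58 for GREB1 and -1.14 for PABPC3.

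Among the controls the genes parted. Empty liposomes 1, the array with the lowest intensity, was the highest liposome array for FAM46B and the lowest for FOXK2, GREB1 and PABPC3. Dilution buffer 3 was the highest buffer array for FAM46B and PABPC3 and the lowest for GREB1. After each group's mean was subtracted, Pearson's r over the 9 arrays was 0.481 between FAM46B and PABPC3, 0.55 between FOXK2 and GREB1, 0.538 between FOXK2 and PABPC3 and 0.181 between GREB1 and PABPC3. It was -0.193 between FAM46B and FOXK2 and -0.363 between FAM46B and GREB1. The probes share arrays and their normalization, and these values describe 9 arrays only.

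**Figure D3:**
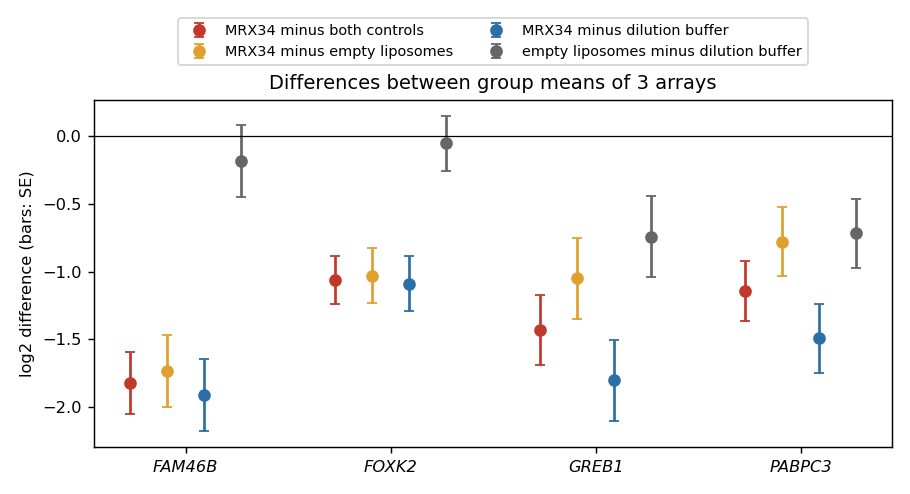
Log2 difference between group means (vertical axis, bars are SE, 3 arrays a group) for the 4 genes. Empty liposomes minus dilution buffer (grey) is -0.18 for FAM46B and -0.05 for FOXK2, and -0.74 for GREB1 and -0.72 for PABPC3.

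The 4 genes fell into pairs by their levels in the controls, a split that was not tested. FAM46B and FOXK2 had like levels with empty liposomes and with dilution buffer, and their differences from MRX34 were of like size in each contrast. GREB1 and PABPC3 were lower with empty liposomes than with dilution buffer on every array, and lower again with MRX34. Of all 19802 probes, 18 (0.0909%) had the 3 groups apart in that order, and GREB1 and PABPC3 were 2 of them. In empty liposomes against dilution buffer alone, 6.78% of probes had all 3 liposome arrays below all 3 buffer arrays. The same dilution buffer arrays entered the contrasts that chose the genes, so nothing is read from these shares.

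With limma's moderated test and Benjamini-Hochberg adjustment over all probes, 0 of the 4 genes passed in any contrast, as 0 of 19802 probes (0%) did. At an unadjusted p under 0.05, MRX34 against both controls held 2110 probes, of which 828 (4.18% of all) were lower and 1282 (6.47%) higher. Against empty liposomes 2.75% of probes were lower and 6.15% higher at that p, and against dilution buffer 4.69% were lower and 5.33% higher. For empty liposomes against dilution buffer 3.81% were lower and 2.4% higher. All 3 MRX34 arrays lay below all 6 controls for 4 of the 4 genes, against 2.03% of all probes. The share was 5.09% for MRX34 below empty liposomes alone and 8.8% for MRX34 below dilution buffer alone. Nothing is read from these shares, because the same contrasts chose the genes. With array weights limma called 1287 probes against both controls, the 4 genes among them. With the filter at detection on all 9 arrays it called 2, FAM46B among them. The same contrasts chose the genes, so nothing is read from these calls either.

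The 4 genes were not those with the largest decrease in size. Ordered by the difference from both controls, FAM46B was 24th, GREB1 76th, PABPC3 182nd and FOXK2 242nd of 9188 lower probes, and 1.48% of all probes had a difference of -1 or lower. Ordered by p they were 2nd (FAM46B), 5th (FOXK2), 7th (GREB1) and 10th (PABPC3). Next to PABPC3 stood BAG3 (-1.04) just before it and ZNF609 (-1.02) just after. Against dilution buffer they were 1st (FAM46B), 3rd (GREB1), 4th (PABPC3) and 7th (FOXK2), with PHRF1 (-1.17) just before and ABI2 (-1.10) just after FOXK2. Against empty liposomes FAM46B was 3rd and FOXK2 8th, while GREB1 was 57th and PABPC3 121st.

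**Figure D4:**
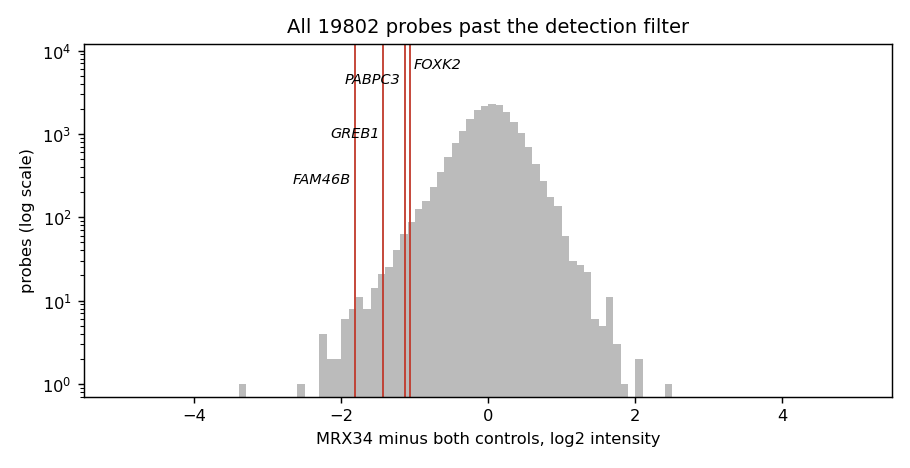
Number of probes (vertical axis, log scale) by the log2 difference between MRX34 and both controls (horizontal axis), for all 19802 probes past the detection filter. Red lines mark FAM46B (-1.82), GREB1 (-1.43), PABPC3 (-1.14) and FOXK2 (-1.06), and probes with larger decreases lie to their left.

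**Figure D5:**
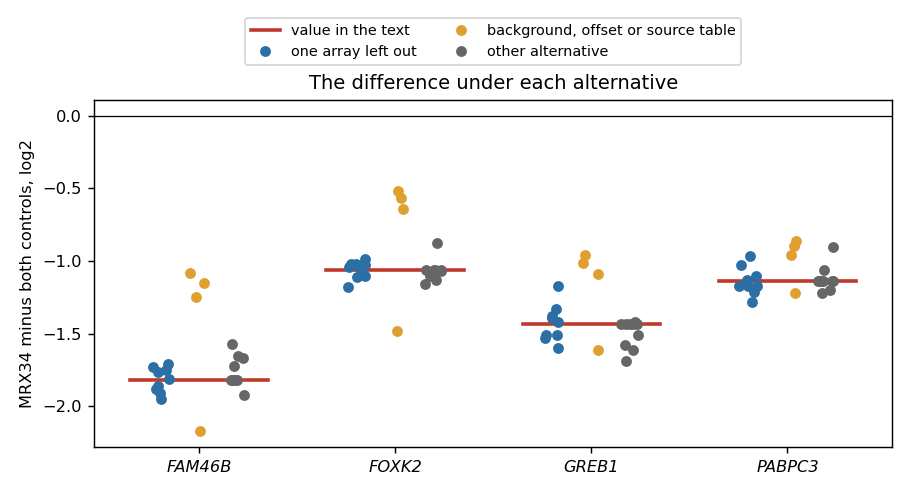
Log2 difference between MRX34 and both controls (vertical axis) for each gene under the processing reported here and under each alternative, 1 point an alternative. All points lie below 0, from -2.17 to -1.08 for FAM46B, -1.48 to -0.515 for FOXK2, -1.69 to -0.955 for GREB1 and -1.28 to -0.865 for PABPC3. The genes were chosen as lower on these same arrays, so the sign is no separate check.

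Other enzymes that add bases to RNA ends lay on both sides of 0. Of 13 probes for 12 other poly(A) polymerases and nucleotidyltransferases, 5 were lower and 8 higher in MRX34 than in both controls, with a median of 0.13 log2 units against 0.03 over all probes, and 0 passed. Its paralog FAM46A averaged 10.46 ± 0.232 log2 units in MRX34, 10.30 ± 0.128 in empty liposomes and 10.12 ± 0.137 in dilution buffer. FAM46C averaged 6.39 ± 0.160 in MRX34, 6.58 ± 0.279 in empty liposomes and 5.82 ± 0.304 in dilution buffer (SD, n = 3 each). FAM46D, detected on 3 of 9 arrays, differed from both controls by 0.14 (SE 0.268). After FAM46B the smallest p belonged to TUT1, the U6 RNA uridylyltransferase, at -0.37 (SE 0.160).

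Poly(A)-binding proteins and their partners lay on both sides of 0, more of them lower, without passing the test. Of 20 probes for 13 genes other than PABPC3, 13 were lower and 7 higher, with a median of -0.20 against 0.03 over all probes, and 0 passed. PABPC4, the inducible cytoplasmic form, averaged 10.12 ± 0.139 log2 units in MRX34, 10.66 ± 0.270 in empty liposomes and 10.62 ± 0.345 in dilution buffer, a difference from both controls of -0.52 (SE 0.208). PABPC4L, a paralog named after its value was seen, lay the other way, at 8.15 in MRX34, 6.93 in empty liposomes and 7.25 in dilution buffer, a difference of 1.06 (SE 0.433). EIF4G1, a partner also named after its values were seen, lay lower on both probes, at -1.06 (SE 0.430) and -1.08 (SE 0.463). PABPN1, the nuclear form, differed by -0.62 (SE 0.252), and LARP1, which binds messenger RNAs of the translation machinery, by -0.49 (SE 0.195). Of the PABPC1 probes, ILMN_1761155 differed by -0.08 (SE 0.209) and ILMN_2136133 by -0.71 (SE 0.415).

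Deadenylases, which shorten the tails, were listed together with other subunits of their complexes and with partners. This list had 11 probes lower and 20 higher of 31, with a median of 0.08 and 0 passing. The smallest p-values were those of the CCR4-NOT ubiquitin ligase CNOT4, at -0.55 (SE 0.231) on 1 of its 3 probes and -0.54 and -0.13 on the others, and of the CCR4-NOT partner TNKS1BP1, at -0.81 (SE 0.358).

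Among forkhead factors the nearest relative of FOXK2 lay lower as well on its brighter probe, and so did some others. FOXK1, which shares partners and many targets with FOXK2, averaged 8.51 ± 0.153 log2 units in MRX34, 9.20 ± 0.210 in empty liposomes and 9.41 ± 0.356 in dilution buffer (SD, n = 3 each). Its difference from both controls was -0.79 (SE 0.204), with an adjusted p of 0.343 from limma's moderated test over all probes. Its second probe was detected on 1 of 9 arrays and averaged 4.97 in MRX34, 4.89 in empty liposomes and 4.99 in dilution buffer. Of 24 forkhead probes for 19 genes other than FOXK2, 14 were lower and 10 higher, with a median of -0.12 and 0 passing. Named after their values were seen, FOXO4 (-1.33, SE 0.669) and FOXC1 (-0.80, SE 0.263) lay lower by as much as FOXK1 or more. FOXP4 lay higher on its brighter probe (0.55, SE 0.212). The lower level was thus not particular to FOXK1.

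Partners of FOXK proteins (the SIN3 and BAP1 complexes and the Dishevelled proteins) had 11 probes lower and 9 higher of 20, a median of -0.13 and 0 passing. The Dishevelled genes DVL3 and DVL2, which carry Wnt signals and bind FOXK proteins, had the smallest p-values, at -0.545 (SE 0.178) for DVL3 and -0.997 (SE 0.339) for DVL2. DVL1, the other Dishevelled gene listed, was detected on 3 arrays and differed by -0.198 (SE 0.194).

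The receptor that GREB1 serves did not reach the detection threshold. ESR1, the oestrogen receptor, was detected on 0 of 9 arrays, at a mean of 4.796 log2 units in MRX34, 5.003 in empty liposomes and 4.853 in dilution buffer. Of 29 probes for 22 genes listed as oestrogen-responsive, GREB1 left out, 19 were lower and 10 higher than in both controls. Their median was -0.08 against 0.03 over all probes, and 0 passed. After GREB1 the smallest p was that of KRT19, an epithelial keratin, at -0.86 (SE 0.249). The GREB1 paralog GREB1L (KIAA1772 in the table), counted among the 22 genes and detected on 5 of 9 arrays, differed by 0.28 (SE 0.236).

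Genes with the most similar pattern were sought by Pearson's r over the 9 arrays, among the brightest probes of 15582 symbols. High values are to be had by selection among so many genes, and no p is given. For FAM46B they were FAM189B (now ENTREP3, r = 0.967), ADAT1 (0.959) and TRIM5 (0.955), and the most opposed was GINS2 (-0.989). GINS2 averaged 10.30 log2 units in MRX34, 9.84 in empty liposomes and 9.78 in dilution buffer. After subtraction of the group means, r with FAM46B was -0.87 for GINS2, 0.704 for FAM189B, 0.53 for ADAT1 and 0.696 for TRIM5. The genes were picked by r over the same arrays, so these values are selected too and are no separate check.

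For FOXK2 the most similar were REEP4 (r = 0.943), PASK (0.938) and PAFAH2 (0.929), and the most opposed was DUSP12 (-0.941). Without the group means these values were 0.508, -0.043, 0.501 and -0.445. PASK followed FOXK2 in the group means and not within the groups.

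For GREB1 the most similar were KPNA2 (r = 0.948), SSBP3 (0.933) and MYC (0.931), and the most opposed was VNN2 (-0.968). MYC averaged 10.56 log2 units in MRX34, 10.93 in empty liposomes and 11.22 in dilution buffer, and KPNA2 averaged 9.26, 9.90 and 10.27 in the same groups. For PABPC3 they were PTPLA (now HACD1, r = 0.963), CABIN1 (0.961) and RPS26 (0.943), and the most opposed was SETD3 (-0.963). After the group means were subtracted, r with PABPC3 was 0.922 for HACD1, 0.862 for CABIN1, 0.785 for RPS26 and -0.806 for SETD3. With GREB1 it was 0.754 for KPNA2, 0.715 for SSBP3, 0.611 for MYC and -0.837 for VNN2. These values come from genes selected on the same arrays.

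The promoters of FAM46B and FOXK2 are shown, the 2 of the 4 genes matched in the RefSeq promoter table. Each window has 300 bases around the annotated start, most of them before it, on the gene's strand (GRCh38.p14). That of TENT5B (FAM46B) is chr1:27012801-27013100, minus strand, and that of FOXK2 is chr17:82519482-82519781, plus strand. Capitals mark CCAAT or its complement ATTGG, the letters bound by the factor NF-Y.
TENT5B: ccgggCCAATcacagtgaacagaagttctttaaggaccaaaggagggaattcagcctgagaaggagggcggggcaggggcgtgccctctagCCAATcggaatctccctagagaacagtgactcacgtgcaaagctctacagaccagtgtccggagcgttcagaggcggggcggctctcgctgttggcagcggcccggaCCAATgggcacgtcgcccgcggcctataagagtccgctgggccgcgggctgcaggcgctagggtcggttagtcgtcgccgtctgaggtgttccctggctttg
FOXK2: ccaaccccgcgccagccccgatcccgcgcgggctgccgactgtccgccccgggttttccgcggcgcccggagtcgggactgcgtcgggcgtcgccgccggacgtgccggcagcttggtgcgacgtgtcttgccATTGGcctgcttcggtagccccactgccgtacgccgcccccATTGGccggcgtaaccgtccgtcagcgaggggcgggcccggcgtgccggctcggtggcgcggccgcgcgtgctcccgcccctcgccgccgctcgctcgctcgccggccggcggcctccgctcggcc

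TENT5B held 3 CCAAT matches and FOXK2 held 2, counted on both strands with none overlapping. Of 35116 promoters of this length, 34.6% held at least 1, 10.8% at least 2 and 3.26% at least 3. CACGTG, an E-box bound by MYC and USF factors, was found 1 time in TENT5B and 0 times in FOXK2, and in 7.26% of promoters. The forkhead motif GTAAACA (3.42% of promoters) and full consensus matches of the heat shock element (0.49%) and the oestrogen response element (0.057%) were in neither window. CCAAT and CACGTG were searched after the 2 sequences had been read, and a match describes letters, not binding.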

How the data were processed

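Per the file headers, the main deposited table gives each probe an intensity and a detection p-value on each of 9 arrays. The authors' intensities in it were already quantile normalized and not background-subtracted, as read from the values: the sorted columns differ by at most 1.66 units. A second deposited table holds background-subtracted intensities that were not normalized between arrays. What software made these values is not given in the sources used here.

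With limma 3.58.1 under R 4.3.3, background was removed by the normexp method, which here read the level of the negative controls off the detection p-values. An offset of 16 was then added, arrays were quantile normalized, and log2 was taken. Of 47322 probes, those lacking a symbol (3270), spike-ins (92) and symbols turned into dates (54) were set aside. Probes entered the test if detected (detection p under 0.05) on 3 or more arrays. The 19802 such probes (15582 symbols) were fitted together with limma on all 9 arrays (moderated two-sided tests, Benjamini-Hochberg over all of them, called under 0.05), after the fit was tested on simulated data.

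The 4 genes, the gene lists and the tests were chosen with earlier results of these data known. Each gene was named with every probe, the 3 genes most like it and the 1 least like it (Pearson's r over the 9 arrays, placeholder symbols passed over), fixed paralogs, and the 2 members of each list with the smallest p in MRX34 against both controls. The alternatives changed the background correction, offset, normalization, source table, filter, probe rule, arrays, variance model, array weights, pairing and covariates, and left out each array in turn.

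The replicate numbers of the sample names were checked by correlating deviations from the group means. Equal numbers of MRX34 and empty liposomes gave 0.439, 0.482 and 0.278, and unequal numbers gave -0.572 to 0.00765. Deviations of 3 arrays from their group mean sum to 0, so these values cannot establish a pairing. Array 1 was also the dimmest of both groups (mean intensity 323 in MRX34 and 163 in empty liposomes), and its part was not tested. Equal numbers gave -0.0747, 0.104 and -0.145 for MRX34 and dilution buffer, and -0.187, 0.289 and -0.312 for empty liposomes and dilution buffer. The labels state no pairing.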

Additional observations from a re-analysis of the deposited data

How the results depend on the processing

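Every alternative kept the 4 genes lower in MRX34 than in both controls, than in empty liposomes and than in dilution buffer. The genes were chosen as lower on these same arrays, so the kept direction is no separate check. The alternatives show only how the size of each difference moved. Of the log2 differences from both controls, FAM46B was -1.08 with background left in, -1.15 under normexp without the detection p-values and with 50 as the offset, -1.25 from the series table and -2.17 with an offset of 1. FOXK2 was -0.515, -0.566, -0.642 and -1.48 in the same order, and -0.873 with array weights. GREB1 was -0.955 with background left in and -1.01 under that second setting, and PABPC3 moved by less than its spread in all 23 alternatives. The second setting changed both the background estimate and the offset, and their parts were not separated. FOXK2 has no value with the filter at detection on all 9 arrays. Leaving out 1 array gave -1.95 to -1.71 for FAM46B, -1.18 to -0.986 for FOXK2, -1.60 to -1.17 for GREB1 and -1.28 to -0.963 for PABPC3. Empty liposomes minus dilution buffer for FOXK2, -0.0529, turned to 0.0855 with cyclic loess, 0.106 with array weights and 0.0486 without empty liposomes 1, alone or with MRX34 2 also left out (leaving out 1 array gave -0.126 to 0.0486).

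The count of probes called by limma, 0 in each contrast, was 2 against both controls with detection on all 9 arrays, 1 when the variance was robust and trended, and 1 when dilution buffer 1 was left out (0 to 1 over single arrays). Against empty liposomes it was 2 without empty liposomes 2 (0 to 2 over single arrays left out). With array weights it was 1287 against both controls, 272 against empty liposomes, 2826 against dilution buffer and 122 between the controls. The fit weighted dilution buffer 2 by 7.98, MRX34 3 by 3.97 and no other array by more than 2.12. The cause was not tested. With the replicate block, on 9 arrays or on those of the contrast, 0 probes were called, so that it changed no call. Each block holds 1 array of each group, so the differences could not change and only their SE could. On 9 arrays, against both controls, the SE was 0.238 for FAM46B (0.231 without the block) and 0.178 for FOXK2 (0.176). It was 0.249 for GREB1 (0.258) and 0.183 for PABPC3 (0.221). The detected signal limits FOXK2 most, since its probe missed the detection threshold on 2 of 3 MRX34 arrays (detection p 0.122 and 0.061).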

Other observations

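The 18 probes whose 3 groups stood apart in the order MRX34, empty liposomes, dilution buffer, from lowest to highest, included KPNA2 and CABIN1. KPNA2 was named above as similar to GREB1 and CABIN1 as similar to PABPC3, which have that order too. Both readings use the same pattern on the same arrays, so the overlap is no separate finding. Besides GREB1 and PABPC3, the others included ASGR2, C15orf23, ICAM4, IP6K1, JMJD7, KIAA1543, LOC641710, NUP214, PLOD1, PSPH, SMARCD2, TARS2 and TOP1MT. These genes were listed after their values were seen, and 0 of them passed the test in any contrast.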
